A study of Mus musculus with 6 samples.

Results

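The Ifit and Ch25h cluster is represented here by 7 long non-coding RNA (lncRNA) features listed on chromosome 19, of 24817 features in all. They were chosen by identifier with their counts in the 2 groups known, so their differences in count are described below and carry no test. Of the 7, 4 were lower and 3 higher in cells kept in extract of enoxaparin cement. RAW264.7 cells, an established mouse macrophage line, had received lipopolysaccharide (LPS, a bacterial cell wall component sensed by macrophages) for 24 h before the medium was replaced by an extract of bone cement. In the LPS_ES_PMMA group (3 libraries) the polymethyl methacrylate (PMMA) cement carried enoxaparin sodium (ES), an anticoagulant heparin of short chains, and in the LPS_PMMA group (3 libraries) it did not. LPS was thus shared by all 6 libraries, and no group without LPS or without extract was used here. The control columns of the table name LPS alone, while the titles and treatment labels name LPS_PMMA, so the plain extract rests on those labels. The sources used here do not give the time in extract, nor whether libraries of 1 group are separate cultures. P-values thus rest on a spread between samples that may be technical only.

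Ifit genes encode tetratricopeptide repeat proteins that bind foreign or incompletely capped RNA and restrain its translation. They lie side by side and are among the genes most strongly induced by type I interferon, which LPS-stimulated macrophages release. Ch25h, at the start of the stretch, encodes the enzyme that makes 25-hydroxycholesterol, an antiviral oxysterol, and is interferon-induced as well. Lipa, the lysosomal acid lipase gene, lies between Ch25h and Ifit2. Slc16a12, a gene of the monocarboxylate transporter family that carries creatine, follows Ifit1.

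Total counts over all listed features lay between 1123551 (LPS_ES_PMMA 2) and 3697638 (LPS_PMMA 1), and the 7 features together held 118 to 199 reads per library. Levels are given as CPM, counts per 1e+06 counts after scaling by TMM factors. In the same edgeR quasi-likelihood fit, an adjusted p under 0.05 was reached by 4.76% of the 8873 tested features, of which those higher in LPS_ES_PMMA made up 2.18% of all tested and those lower 2.58%. All 7 features passed there, as the choice of them implies. The split of calls moved with the scaling, from 193 higher and 229 lower with TMM factors to 302 and 68 with column totals and 230 and 94 with the totals behind FPKM, where the median log2 fold change of all features was 0.82 and 0.45. The table lists lncRNA features only. Of 10 macrophage marker genes, 2 (Adgre1 and Mertk) had features tied to them, whose summed level ranged from 38.5 to 49.9 CPM in LPS_ES_PMMA libraries, and in LPS_PMMA libraries from 52.4 to 64.9 CPM. Features tied to 2 of 4 T cell markers summed to 18.7 to 33.3 and 9.39 to 12.2 CPM, to 1 of 3 epithelial markers to 53.4 to 66.7 and 31.0 to 34.3 CPM, and to 1 of 5 fibroblast markers to 0.971 to 1.68 and 0.787 to 2.53 CPM. No feature was tied to the B cell, neutrophil or endothelial markers. The 1 T cell marker feature tested reached an adjusted p under 0.05 from edgeR. Neither the 2 macrophage features tested nor the 1 epithelial feature did, and no fibroblast feature was tested. The part of these marker features in the results below was not tested. All 6 libraries are of the RAW264.7 line, and these sums are levels of lncRNA features, so they do not measure shares of cell types. In bulk samples, fewer cells of a type and less RNA per cell cannot be told apart.

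Positions are given before levels, because they decide which gene a feature stands for. The labels name build mm10, and the 7 features are listed between 34474809 and 34661955 of chromosome 19. NONMMUT105438.1 (34474809 to 34481547, labelled exonic antisense) matched Gm26902, a lncRNA that shares its start region with Ch25h in the GENCODE M21 annotation of mm10. Both ends differed by 1 base and the exons of the 2 summed to the same 3702 bases, of which 159 lie over Ch25h. MSTRG.29277.1 (34547699 to 34551969) and MSTRG.29280.1 (34560945 to 34566127), assembled by the authors and labelled antisense, are both tied to Ifit2 by the table. NONMMUT034527.2 (34622239 to 34623494), unspliced, lies in an intron of Ifit1bl2 on the opposite strand. NONMMUT106142.1 (34655091 to 34657798), NONMMUT106143.1 (34658213 to 34659688) and NONMMUT106144.1 (34660549 to 34661955), all unspliced, are listed as intergenic between Ifit1 and Slc16a12. The nearest protein-coding gene was Ifit1 for the first pair of these, at 5082 and 8204 bases, and Slc16a12 for NONMMUT106144.1, at 6448 bases.

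The assembled features did not meet the mm10 gene models at their listed places. MSTRG.29280.1 is 1727 bases long over a span of 5183, so its introns sum to 3456 bases, the length of the only intron of Ifit3. Its ends fall inside the exons of Ifit3 when an offset of 22586 to 22604 bases is added to the listed position. At either end of that range its 1727 bases lie in Ifit3 exons, against 93 exon bases (of Ifit2) anywhere in its span as listed. MSTRG.29277.1 likewise has 2696 intron bases, the length of the intron between exons 2 and 3 of Ifit2, and allows an offset of 22520 to 22671 bases. At the offset it shares with MSTRG.29280.1, all of its 1575 bases lie in Ifit2 exons. The junctions that these introns form in the M21 transcripts are printed because they are the features' link to a gene, as the sense strand, with the last base of one exon and the first of the next in capitals. Both features are labelled antisense, but the sources used here do not say whether strand was used in counting. Reads of the Ifit2 and Ifit3 messenger RNAs and reads of these features therefore cannot be told apart.
Ifit2, exon 2 to exon 3: cacagcagtcatgaGTacaacgagtaagga
Ifit3, exon 1 to exon 2: gatcaccatcatgaGTgaggtcaaccggga

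Offsets differed along chromosome 19, and the one at the Ifit genes was shared by 19 other assembled features. All 80 assembled features listed on chromosome 19 were spliced, and 52 had an intron sum that matched 1 or more neighbouring introns of an annotated transcript, with ends inside its exons, at some offset. None of the 52 allowed an offset of 0. Counting MSTRG.29277.1 and MSTRG.29280.1, 21 of the 52 allowed an offset within 50 bases of the range of MSTRG.29280.1, and they start between positions 6812596 and 36811932. The other 31 did not. Of the 14 matched features listed before that interval, 13 needed offsets of -50360 to -49902 bases and 1 a positive one, and the 17 after it needed 11101 to 11763 bases. The interval was drawn from the features that agree, so their agreement within it is a description and no test. The table also lists 2 features on MU069435.1, a sequence name that the M21 annotation of mm10 does not hold and that belongs to the later assembly GRCm39. Gene models of GRCm39 were not used here. Adding the offset to listed positions stands in for them, for this stretch only.

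Annotated features such as NONMMUT105438.1 are listed at mm10 positions, so the question was whether their reads also followed the offset. Of 240 unspliced annotated features of chromosome 19 between 6.8 and 37 Mb, the interval of that offset, and outside the stretch, 30 had at least 50% of their bases in protein-coding exons only as listed, and held a median of 8.99 reads per kb over the 6 libraries. Another 18 were that exonic only with the offset added, and held a median of 42.3 reads per kb. The 188 that were exonic in neither frame held 27.5 reads per kb, and 4 exonic in both held 33.5. Features that fall on exons with the offset thus held more reads per length than those on exons as listed. The share of exon bases of the 240 was 14.1% at the listed position and highest, 14.7%, at an offset of 22600 bases, beside a median of 8.92% over the offsets tried. It was still 14.5% at 24000 bases, so this curve does not set the offset closely. The curve sets listed positions against exons and uses no reads, so it cannot show which positions the counts follow. Only the reads per kb bear on that, as a description without a test. The sources used here do not say how the authors placed reads.

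**Figure D1:**
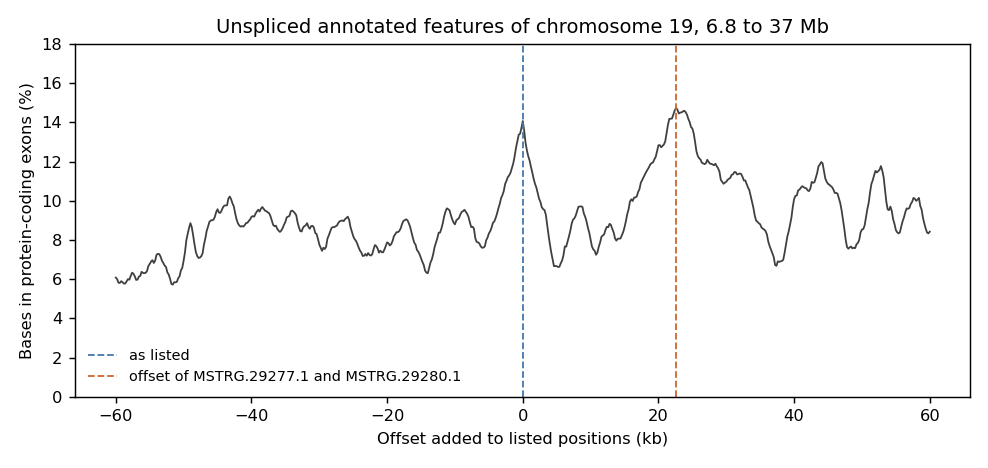
Share of the bases of 240 unspliced annotated features that lie in protein-coding exons (y axis, %) when an offset (x axis, kb) is added to their listed positions. The curve stands at 14.1% at the listed position and is highest (14.7%) at 22600 bases, on a broad rise that holds the offset allowed by the introns of MSTRG.29277.1 and MSTRG.29280.1.

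The stretch held 11 features in all, which fell into 2 runs by direction along the chromosome. The 5 features listed up to position 34623494 were all lower in LPS_ES_PMMA, and the 6 from 34655091 on were all higher, with 31596 bases between them. As listed, the lower features overlapped Ch25h, Ifit2 (3 features) or Ifit1bl2. Of the higher features, 2 lay in an intron of Slc16a12 and 4 overlapped no protein-coding gene, between Ifit1 and Slc16a12. By overlap as listed, no gene held features of both directions, but 4 higher features had no gene to sort them. By nearest gene, NONMMUT106142.1 and NONMMUT106143.1 went to Ifit1, so the Ifit genes then held both directions. With the offset added, the lower features overlapped Lipa, Ifit2, Ifit3 (2 features) and Ifit1, and 6 of 6 higher features lay within Slc16a12, mostly in introns, with 97 to 104 exon bases under NONMMUT106142.1 and 0 under the others. NONMMUT034527.2 then lay in the intron of Ifit1. NONMMUT105438.1 is the feature whose gene depends most on the frame, since with the offset it moves from Ch25h to Lipa, and 10 to 28 of its 3702 exon bases then fell on protein-coding exons.

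**Figure D2:**
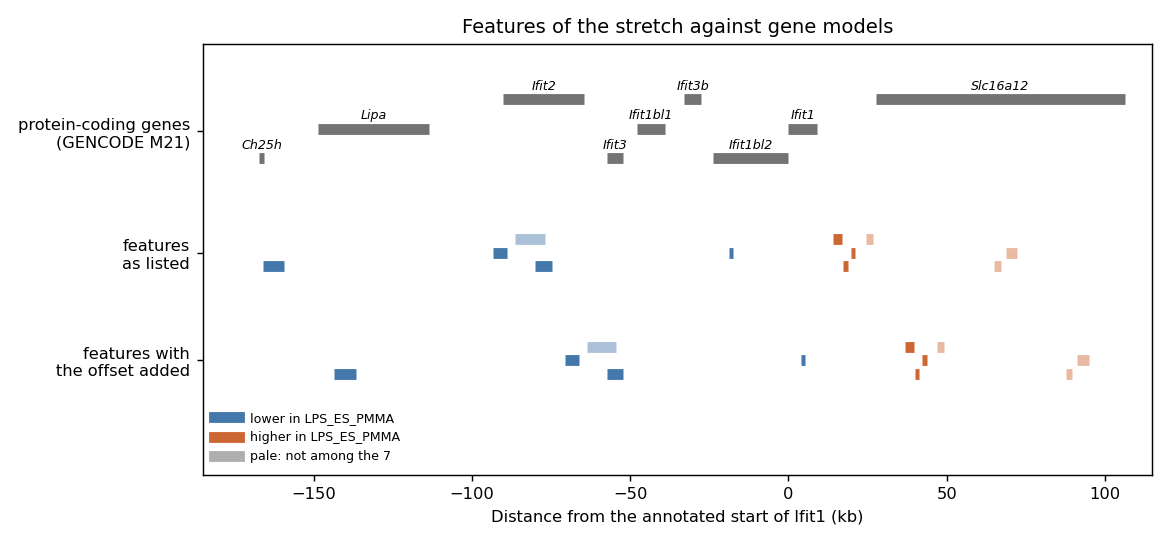
Protein-coding genes of GENCODE M21 (grey) and the 11 features, as listed and with the offset added, by distance from the annotated start of Ifit1 (x axis, kb). Features lower in LPS_ES_PMMA (blue) lie at Ch25h, Lipa and the Ifit genes, and those higher (orange) lie beyond Ifit1, 2 of them within Slc16a12 as listed and all within Slc16a12 once the offset is added. Pale bars are the 4 features not among the 7.

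Promoters of these genes were compared for the interferon-stimulated response element, the site bound by the transcription factor complex that interferon activates. The motif searched was GAAANNGAAA on either strand (TTTCNNTTTC on the other), in the 200 bases before each RefSeq gene start (GRCm38.p6, the assembly of mm10). It was present in 2.27% of 32851 promoters, and in 5 of 6 Ifit genes (6 of 9 start sites). The windows of Ifit1 and Ifit1bl2 overlap, so their matches are shared. Ifit2, Ch25h, Lipa and Slc16a12 had no match, which says only that these letters are not in this window. The windows of the 2 Ifit2 start sites end at 34550693 and 34551087. The Ifit2 intron that MSTRG.29277.1 matches starts at 34570371, so these windows do not adjoin that feature. The windows of genes on either side of the change in direction are printed 5′ to 3′ with the motif in capitals.
Ch25h (chr19:34475149-34475348, - strand): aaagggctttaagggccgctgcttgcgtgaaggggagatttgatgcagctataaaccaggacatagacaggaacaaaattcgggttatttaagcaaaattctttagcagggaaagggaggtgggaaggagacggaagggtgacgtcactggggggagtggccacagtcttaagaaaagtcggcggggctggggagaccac
Ifit2 (chr19:34550494-34550693, + strand): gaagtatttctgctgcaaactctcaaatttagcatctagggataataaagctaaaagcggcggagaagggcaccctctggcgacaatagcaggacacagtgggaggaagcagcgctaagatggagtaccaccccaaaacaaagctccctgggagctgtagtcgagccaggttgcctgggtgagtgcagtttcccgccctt
Ifit3 (chr19:34583329-34583528, + strand): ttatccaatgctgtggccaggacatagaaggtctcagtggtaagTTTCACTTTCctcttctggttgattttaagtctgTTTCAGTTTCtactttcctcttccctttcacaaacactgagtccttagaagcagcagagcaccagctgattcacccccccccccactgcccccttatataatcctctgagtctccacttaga
Ifit1 (chr19:34640689-34640888, + strand): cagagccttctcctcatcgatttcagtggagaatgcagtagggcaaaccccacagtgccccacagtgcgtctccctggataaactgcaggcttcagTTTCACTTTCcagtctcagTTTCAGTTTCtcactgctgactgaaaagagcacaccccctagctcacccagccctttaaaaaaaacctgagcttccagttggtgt
Slc16a12 (chr19:34747329-34747528, - strand): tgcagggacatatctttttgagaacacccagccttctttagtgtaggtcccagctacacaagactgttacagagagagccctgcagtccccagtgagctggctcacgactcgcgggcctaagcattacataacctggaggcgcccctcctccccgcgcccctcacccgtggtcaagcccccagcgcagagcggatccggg
Counted from the gene start, the matches began at -156 and -122 in Ifit3 and at -104 and -85 in Ifit1.

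Among the features over Ifit genes, MSTRG.29280.1 held the highest control level per library total. It had 60, 61 and 40 reads in LPS_PMMA 1, 2 and 3, and 0, 2 and 0 in LPS_ES_PMMA 1, 2 and 3. Its level was 22.6 ± 7.62 CPM (SD, n = 3) in LPS_PMMA and 0.338 ± 0.585 in LPS_ES_PMMA. The ratio of pooled reads was 99.3, with an exact 95% interval of 27.1 to 827 that covers counting error only. The fitted log2 fold change was -6.35 (SE 0.82), -5.58 without LPS_ES_PMMA 1 and -9.02 without LPS_ES_PMMA 2, where the group held no reads and the fitted value is no bound. Ifit3, whose exons the feature matches with the offset, is the Ifit gene that encodes a partner of the other family members.

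MSTRG.29277.1, over Ifit2 in both frames, was the most uneven of the 4 lower features across LPS_PMMA libraries, with a coefficient of variation of 68.0%. It held 57, 45 and 14 reads in LPS_PMMA 1, 2 and 3 and 4, 0 and 2 in LPS_ES_PMMA 1, 2 and 3. LPS_PMMA 3 had the lowest control value, still above every LPS_ES_PMMA library. The level went from 16.9 ± 11.5 to 0.548 ± 0.498 CPM (SD, n = 3), a log2 fold change of -4.62 (SE 0.84) that was -5.24 without LPS_ES_PMMA 1.

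NONMMUT034527.2, in an intron of Ifit1bl2 as listed and of Ifit1 with the offset, was the most even of the 4 lower features in both groups. Ifit1 is the family member that binds RNA lacking the methylation of a mature cap. The feature held 30, 43 and 48 reads in LPS_PMMA 1, 2 and 3, and 3, 2 and 2 in LPS_ES_PMMA 1, 2 and 3. Scaled levels were 14.7, 16.9 and 17.3 CPM against 0.729, 1.01 and 0.674 CPM, with coefficients of variation of 8.50% and 22.6%. The log2 fold change was -4.31 (SE 0.37) and lay between -4.43 and -4.24 in the 6 fits that each left out a library.

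NONMMUT105438.1, listed at Gm26902 and Ch25h and within Lipa with the offset, held 30, 22 and 32 reads in LPS_PMMA 1, 2 and 3, and 2, 1 and 0 in LPS_ES_PMMA 1, 2 and 3. The groups were far apart, at 11.7 ± 3.05 and 0.331 ± 0.287 CPM (SD, n = 3). The pooled ratio was 34.5 (exact 95% interval 11.4 to 171, counting error only) and the log2 fold change -4.96 (SE 0.63). Only 3 reads in all stood in LPS_ES_PMMA, so the size of the difference is loosely set.

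The 3 features past Ifit1 went the other way. NONMMUT106142.1 held 63, 41 and 37 reads in LPS_ES_PMMA 1, 2 and 3 against 2, 3 and 10 in the LPS_PMMA libraries. That is 16.2 ± 4.22 against 1.92 ± 1.46 CPM (SD, n = 3), a log2 fold change of 2.98 (SE 0.51), or 3.81 without LPS_PMMA 3. NONMMUT106143.1 held 79, 45 and 50 reads against 6, 9 and 17. Its level was 19.6 ± 3.00 against 4.21 ± 1.70 CPM, a log2 fold change of 2.18 (SE 0.35). NONMMUT106144.1 held 48, 31 and 27 reads against 6, 3 and 10, or 12.2 ± 3.33 against 2.58 ± 1.26 CPM, with a log2 fold change of 2.20 (SE 0.47). In all 3 features LPS_PMMA 3 was the highest control library and remained under every LPS_ES_PMMA library. Pooled ratios were 7.62, 4.41 and 4.52, with exact 95% intervals (counting error only) of 4.47 to 14.0, 3.01 to 6.64 and 2.76 to 7.81.

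The 3 features kept nearly fixed proportions among themselves in LPS_ES_PMMA. NONMMUT106143.1 took 41.6%, 38.5% and 43.9% of the reads of the 3, NONMMUT106142.1 took 33.2%, 35.04% and 32.5%, and NONMMUT106144.1 the rest. In LPS_PMMA the 3 features held 14, 15 and 37 reads in all, too few to read proportions closely. For all 7 features the groups did not overlap in CPM, which was also so for 16.2% of tested features in the higher direction and 14.6% in the lower.

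**Figure D3:**
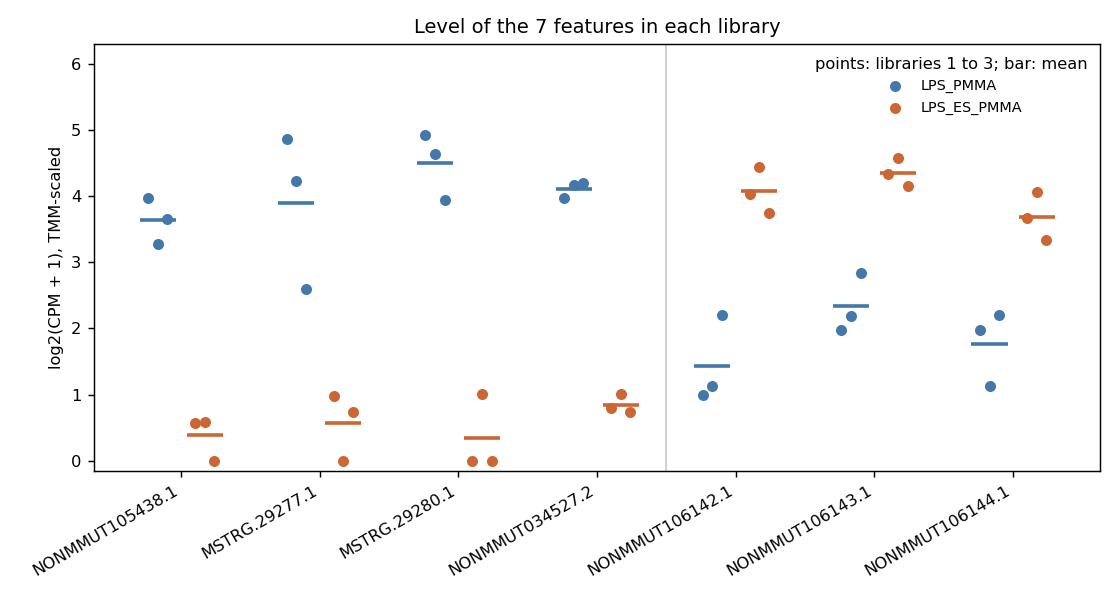
Level of each of the 7 features in every library as log2(CPM + 1), with 3 points and their mean (bar) per group. The 4 features at left are lower and the 3 at right higher in LPS_ES_PMMA (orange) than in LPS_PMMA (blue), and no feature has overlapping groups.

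Levels per length can be set side by side as FPKM, which the authors computed on the listed lengths. In LPS_PMMA, NONMMUT034527.2 stood at 7.82 ± 2.30 FPKM (SD, n = 3), MSTRG.29280.1 at 7.42 ± 1.30 and MSTRG.29277.1 at 5.75 ± 3.06, neighbours that did not differ beyond their spread. NONMMUT105438.1 was under these at 1.82 ± 0.400 FPKM, followed by NONMMUT106143.1 at 1.78 ± 1.07, NONMMUT106144.1 at 1.10 ± 0.673 and NONMMUT106142.1, the lowest, at 0.462 ± 0.429. In LPS_ES_PMMA the order turned over. NONMMUT106143.1 led at 10.7 ± 2.46 FPKM, before NONMMUT106144.1 at 6.98 ± 2.28 and NONMMUT106142.1 at 4.82 ± 1.50, while the 4 lower features had means between 0.0764 and 0.514 FPKM. In the authors' deposited table all 7 features are marked as changed in the same directions, with log2 ratios of mean FPKM from -5.57 for MSTRG.29280.1 to 3.38 for NONMMUT106142.1.

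The other 4 features of the stretch followed their neighbours and did not pass the adjusted p of 0.05. NONMMUT105439.1, over Ifit2 as listed, held 13, 11 and 9 reads in LPS_PMMA and 3, 0 and 1 in LPS_ES_PMMA. It had too few reads for the main fit, and a fit of all listed features gave a log2 fold change of -3.30 (SE 0.76). Near and in Slc16a12, NONMMUT034528.2 held 64, 30 and 29 reads in LPS_ES_PMMA against 2, 3 and 13 in LPS_PMMA, and NONMMUT034530.2 held 64, 37 and 39 against 2, 4 and 16. NONMMUT034529.2, with 52, 20 and 13 against 1, 14 and 5 reads, was the only feature of the 11 whose groups overlapped. Their log2 fold changes were 2.48 (SE 0.57), 2.43 (SE 0.57) and 1.75 (SE 0.71). The threshold runs through this group of like features. NONMMUT106144.1 was just inside it with an adjusted p from edgeR of 0.0405, and NONMMUT034528.2 and NONMMUT034530.2 just outside with 0.0527 and 0.0553.

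A division of the stretch by position needs no scaling between libraries. In LPS_PMMA 1, 2 and 3 the 6 features past Ifit1 held 9.09%, 16.5% and 33.2% of the reads of all 11 features, of 209, 218 and 214 reads. In LPS_ES_PMMA 1, 2 and 3 they held 96.9%, 97.6% and 97.5% of 382, 209 and 200 reads. The exact Clopper-Pearson 95% intervals reached 39.9% at most in the controls and began at 94.3% or above in LPS_ES_PMMA. They cover counting error only, and the control libraries differed among themselves by more than that. The division was placed where the direction changes, and 7 of the 11 features were chosen with their counts known. The separation is therefore a description and no test. Within a library, NONMMUT106143.1 had 26.3, 22.5 and 25.0 reads per read of NONMMUT034527.2 in LPS_ES_PMMA and 0.200, 0.209 and 0.354 in LPS_PMMA. The LPS_ES_PMMA ratios rest on 3, 2 and 2 reads of NONMMUT034527.2, so their size and evenness are loosely set. Most reads of the stretch thus lay before position 34623494 in each LPS_PMMA library, least so in LPS_PMMA 3, and nearly all lay from 34655091 on in each LPS_ES_PMMA library. These shares do not depend on library totals.

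**Figure D4:**
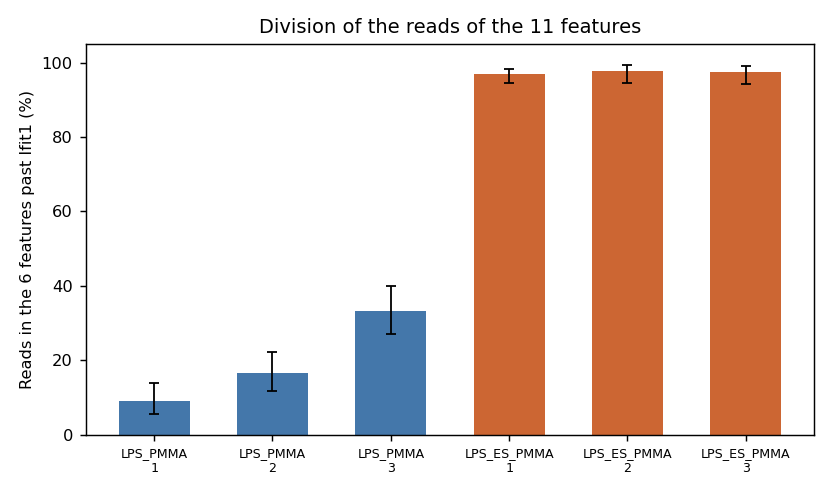
Share of the reads of the 11 features that fell in the 6 features listed past Ifit1 (y axis, %), for each library, with exact 95% binomial intervals (counting error only). Control libraries (blue) lie between 9.09% and 33.2%, and LPS_ES_PMMA libraries (orange) between 96.9% and 97.6%.

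Features of similar pattern were sought among tested features outside the stretch, by root mean square distance of centred log2(CPM + 1) over the 6 libraries. Features of the stretch were left out of this search, so nearer ones within it would not appear. Those found lay on other chromosomes. Nearest to NONMMUT034527.2 were NONMMUT117700.1 on chromosome 4 (distance 0.153), NONMMUT084040.1 on chromosome 11 (0.163) and the assembled MSTRG.49649.2 on chromosome 7 (0.180). NONMMUT084040.1 is the most abundant of them, with 4186, 6586 and 6570 reads in LPS_PMMA and 848, 432 and 761 in LPS_ES_PMMA. Nearest to NONMMUT106142.1 were MSTRG.19618.1, listed in an intron of the synaptic scaffold gene Rims2 (0.210), NONMMUT019230.2 in an intron of the phosphodiesterase gene Pde4d (0.270) and NONMMUT132615.1 on chromosome 9 (0.289). These hold few control reads, as NONMMUT106142.1 does, with 0, 1 and 5, 0, 1 and 6, and 0, 0 and 3 in LPS_PMMA 1, 2 and 3.

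Other interferon genes were read through the table's gene column, from a list of 93 genes, of which 92 were found in M21. The list was drawn up with earlier results of these data known. Its counts and p-values beside all features are therefore a description and no independent support. Outside this stretch 42 features were tied to the listed genes and 14 were tested. Of the 14, 6 fell and 1 rose, against 2.58% and 2.18% of all tested features, and 7 did not pass. Their median log2 fold change was -1.21, beside 0.03 over all tested features. The features that fell are tied to Slfn8, Slfn5 and Slfn2, Schlafen genes that restrain viral or cell growth, to the nuclear body gene Sp110 (2 features) and to Parp14, an ADP-ribosyltransferase gene. NONMMUT011090.2 (Slfn5) went from 34.68 ± 5.33 to 2.62 ± 1.71 CPM (SD, n = 3; log2 fold change -3.79, SE 0.44, edgeR adjusted p = 0.00729). NONMMUT011098.2 (Slfn2) went from 14.0 ± 7.92 to 1.77 ± 0.689 CPM (edgeR adjusted p = 0.0275). NONMMUT001784.2 and NONMMUT001786.2, both antisense to Sp110, had log2 fold changes of -2.05 and -2.33 (edgeR adjusted p = 0.0155 and 0.0217). NONMMUT084037.1 (Slfn8) had a log2 fold change of -7.11 and NONMMUT026433.2 (Parp14) of -1.14 (edgeR adjusted p = 0.012 and 0.0472).

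The feature that rose, NONMMUT150657.1, shares its start region with Usp18, the protease that removes ISG15 from proteins. It went from 4.78 ± 1.20 to 19.9 ± 2.08 CPM (SD, n = 3; edgeR adjusted p = 0.0159). The 7 features that did not pass are tied to Sp100, Parp10, Ifi204, Ifnar1, Stat2, Mavs and Slfn1, with log2 fold changes of -1.30, -1.29, -0.89, 0.27, 0.32, 0.48 and 0.78 in that order. They were named after their values were seen. The 7 calls were 1 without LPS_ES_PMMA 1 or LPS_PMMA 2, 2 without LPS_ES_PMMA 2, LPS_ES_PMMA 3 or LPS_PMMA 3, and 4 without LPS_PMMA 1. They were 3 with column totals and 4 with the totals behind FPKM, so that count rests on the scaling and on each library. Whether these features follow their listed genes or an offset was not tested.

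With 1 library left out, fewer of the 7 passed the adjusted p of 0.05 from edgeR: 1 without LPS_ES_PMMA 1, 3 without LPS_ES_PMMA 2, 2 without LPS_ES_PMMA 3, 3 without LPS_PMMA 1, 2 without LPS_PMMA 2 and 6 without LPS_PMMA 3. Calls over all tested features dropped in the same fits, from 422 of 8873 with all libraries. In the same order they were 54 of 9648, 112 of 9543, 51 of 10446, 136 of 10450, 50 of 10436 and 125 of 10360. The drop is thus not particular to the 7. The direction of each of the 7 chromosome 19 features was the same in all 14 alternative settings. For the 4 lower features and NONMMUT106142.1 the smallest sizes came from limma on log2(FPKM + 1), which understates the change of low features, with -1.38 for NONMMUT105438.1, -2.88 for MSTRG.29280.1 and 1.996 for NONMMUT106142.1. Column totals brought the lower and higher features closer in size, with 3.78 for NONMMUT106142.1 and -3.82 for MSTRG.29277.1.

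**Figure D5:**
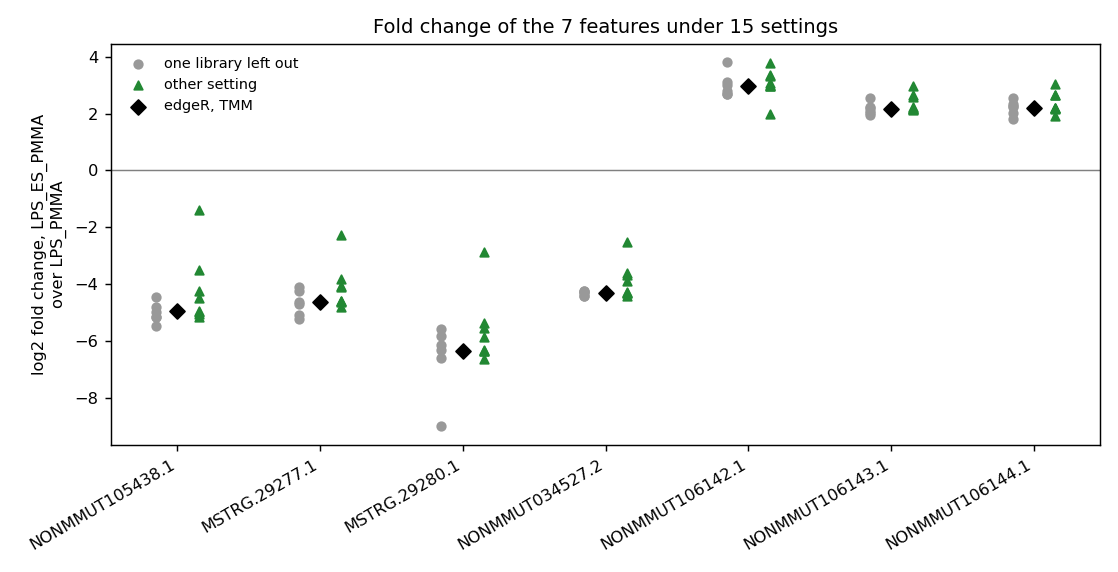
Log2 fold change (y axis, LPS_ES_PMMA over LPS_PMMA) of the 7 features in the edgeR fit with TMM (diamonds), with 1 library left out (circles) and under the other settings (triangles). Every value of the first 4 features lies below 0 and every value of the other 3 above 0.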

How the data were processed

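RNA of 6 RAW264.7 libraries was read from 1 deposited table with 24817 lncRNA features. Its count columns, per the file headers, hold whole numbers of reads that the authors did not normalize. The FPKM values and their group means are the authors', per the file headers. The log2 fold change, p-value and q-value columns are from the authors' edgeR comparison, per the name of the deposited table, and only its log2 values and calls were used. Other deposited columns hold length and position (listed bases). The build mm10 comes from the submitters' processing notes; the sources used here name no aligner, counter or strand setting.

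Features were kept by filterByExpr (minimum count 10, minimum total 15), scaled by TMM and compared in R 4.3.3 by quasi-likelihood F-tests of edgeR 4.0.16, with Benjamini-Hochberg adjustment over 8873 features and a threshold of 0.05. The pipeline was tested on data simulated from its own fitted spread and scaling. Such data cannot show how calls depend on the scaling or on single libraries. limma 3.58.1 and DESeq2 1.42.0 served as alternatives. Standard errors are derived from the fitted change and the square root of its F statistic. Counts per library were 1123551 to 3697638; 3 counts in a library equal 0.729 to 1.52 CPM. Pairs of libraries of 1 group differed by far more than sampling noise (chi-square over its degrees of freedom 15.4 to 45.5).

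Exons came from GENCODE M21 and promoters from RefSeq (GRCm38.p6). The offset was sought after positions had been seen. The members and lists were chosen with earlier results of these data known. Named features are the 7, all others of the stretch with at least 10 reads, and the interferon features called. Also named are the 3 tested features outside the stretch nearest in pattern to each of 2 features. The 7 interferon features not called were named later.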

Additional observations from a re-analysis of the deposited data

How the results depend on the processing

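The 7 features kept their direction in all 14 alternatives, and the median size of their log2 fold changes was 4.31. It was 3.78 with column totals, 3.51 with limma on log2(FPKM + 0.1), 2.12 with limma on log2(FPKM + 1), and 4.09 to 4.32 in fits that left out 1 library. The 422 calls over all features became 174 without the filter on low counts, 192 where features under a mean of 1 FPKM were dropped, and 50 to 136 without 1 library, where fewer samples were fitted. DESeq2 gave 517. The 7 calls tied to interferon genes became 3 with column totals, 4 with totals implied by FPKM, and 1 to 4 without 1 library. With the replicate number as a block, 41 features over all, 1 of the 7 and 1 tied to interferon genes passed. Same-numbered libraries did not deviate together (correlations -0.0196, -0.0246 and -0.0931). With 3 libraries per group this check is weak, so whether they were paired is not known. Of the 11 features of the stretch 7 overlapped a protein-coding gene as listed, 11 lay within 10 kb of one, and 11 overlapped one with the offset, an alternative chosen after seeing the data. Causes were not tested. With 0 to 4 reads per LPS_ES_PMMA library in the lower features of the 7, depth limits how large their fold differences can be shown to be.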
